A study of Rattus norvegicus with 12 samples.

Results

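The 9 genes described here encode transcription factors that set or accompany the hepatocyte programme: Hnf4a (ENSRNOG00000008895), Cebpa (ENSRNOG00000010918), Foxa1 (ENSRNOG00000009284), Foxa2 (ENSRNOG00000013133), Foxa3 (ENSRNOG00000014256), Onecut1 (ENSRNOG00000008095), Prox1 (ENSRNOG00000003694), Pparg (ENSRNOG00000008839) and Esr1 (ENSRNOG00000019358). They were taken by name from the gene list of the nuclei, 9 of the 32883 genes counted, and followed in hepatocytes by lobular zone and by strain. Their values chose none of them.

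The rats were healthy males with no treatment, kept on chow. Single nuclei (snRNA-seq, 3′ version 3 chemistry) and total liver homogenate (TLH) cells from a collagenase digest (scRNA-seq, version 2) were each prepared from 2 Dark Agouti (DA) and 2 Lewis (LEW) rats. A further homogenate of 1 rat per strain was enriched for immune cells by spinning out parenchymal cells, more washing and depleting red blood cells, and Visium spots were read on 2 sections of Wistar liver. The labels put the TLH rats at 8 to 10 weeks of age, but the deposited names carry 10 weeks for the DA and 13 weeks for the LEW rats. The study describes older rats, with the strains matched for age, so these sources disagree on the age of the rats and on whether it differed with strain. Nuclei and TLH libraries are named with shared animal numbers, and both sections with 1 rat number, while the study describes separate animals.

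Hepatocyte identity is held by factors that bind one another's regulatory regions. HNF4A is the nuclear receptor at the centre of this network, C/EBP alpha (Cebpa) drives metabolic genes, the FOXA proteins open chromatin, and HNF6 (Onecut1) and PROX1 act in liver development and bile acid control. PPAR gamma (Pparg) is best known from adipocytes and macrophages, and the oestrogen receptor alpha (Esr1) is the main oestrogen receptor of the liver. Along the lobule, periportal hepatocytes face the incoming blood and pericentral ones surround the central vein, and the 2 ends differ in metabolism.

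RefSeq promoter windows (assembly GRCr8, 250 bases before to 50 after a start) were found for 6 of the 9 genes, in 8 windows. The 3 below are shown because they hold letters of sites bound by factors of this network. Capitals mark matches on either strand to ATTGAT, the letters of an HNF6-type site, or to GTTAAT, those of an HNF1-type site, which overlap in no printed window. In both Hnf4a windows the matches lie on the opposite strand and read in reverse complement.
Hnf4a at chr3:172605970-172606269, plus strand: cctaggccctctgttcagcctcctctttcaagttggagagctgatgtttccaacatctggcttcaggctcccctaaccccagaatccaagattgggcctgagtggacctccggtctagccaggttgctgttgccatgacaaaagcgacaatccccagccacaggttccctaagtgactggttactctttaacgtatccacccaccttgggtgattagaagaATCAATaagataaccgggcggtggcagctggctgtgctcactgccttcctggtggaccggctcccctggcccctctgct
Hnf4a at chr3:172641586-172641885, plus strand: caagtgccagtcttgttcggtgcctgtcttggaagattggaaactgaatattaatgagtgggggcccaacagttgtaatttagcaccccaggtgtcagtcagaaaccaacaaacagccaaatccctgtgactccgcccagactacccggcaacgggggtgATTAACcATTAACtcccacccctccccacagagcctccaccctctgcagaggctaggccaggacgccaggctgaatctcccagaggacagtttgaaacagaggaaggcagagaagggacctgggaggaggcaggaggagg
Foxa2 at chr3:155927459-155927758, minus strand: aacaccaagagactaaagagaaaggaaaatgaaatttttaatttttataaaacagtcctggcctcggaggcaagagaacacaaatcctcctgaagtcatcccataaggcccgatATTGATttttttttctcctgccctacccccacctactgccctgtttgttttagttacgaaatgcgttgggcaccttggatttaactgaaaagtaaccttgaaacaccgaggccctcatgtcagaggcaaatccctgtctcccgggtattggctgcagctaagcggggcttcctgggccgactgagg

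ATTGAT stood in 2 of the 8 windows and in 8.06% of all 33469 rat windows, and GTTAAT in 1 of 8 and in 7.45%. TATAAA, the letters of a TATA-type box, was in 4 of 8 against 14.2%, and the palindromic E-box CACGTG in 0 of 8 against 6.42%. A match describes letters, not binding. The 3′ reads cannot tell from which start a transcript came, and the counts were made on an older rat build, so the coordinates hold for GRCr8 only.

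Hepatocyte-like barcodes were 10936 of 12525 nuclei, 15952 of 23036 TLH cells and 1865 immune-enriched cells, and each strain comparison rested on 2 rats a strain. Libraries held 8039397 to 15186970 UMIs (unique molecular identifiers, or counted transcripts) for nuclei, 61441846 to 92484173 for TLH and 48255870 and 60005133 for immune-enriched cells. Levels are UMIs per 1000000 UMIs (CPM), summed over the hepatocytes of a library. Of the 24 hepatocyte markers 23 were found, each above 0 in the sums of all 8 nuclei and TLH libraries, at 102890 to 158377 CPM together. The 4 nuclei libraries shared at most 6 barcodes a pair after filtering.

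Most of the factors read far higher in hepatocytes than in other cells of the immune-enriched preparation, and the gap was much smaller in the TLH cells and nuclei. In the immune-enriched cells Hnf4a was 161 CPM in hepatocyte-like cells and at most 14.1 CPM in the other 7 classes. Foxa2 was 70.8 CPM against at most 4.71 CPM, and Onecut1 61.9 CPM against at most 5.53 CPM. Prox1 was 29.9 CPM against at most 4.54 CPM. Foxa3, the FOXA family member most tied to adult metabolism, was 20.2 CPM against at most 2.01 CPM, and Esr1 6.66 CPM against at most 1.06 CPM. Cebpa was shared with phagocytes: it was 111 CPM in hepatocyte-like, 43.3 CPM in myeloid-like and 27.3 CPM in Kupffer-like cells, where it is a known myeloid factor. Foxa1 was near the floor, so a gap cannot be judged. It was 1.11 CPM in hepatocyte-like cells, with a median of 0 CPM and at most 0.802 CPM (myeloid-like) in the other 7 classes.

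In the TLH cells the class with the highest level outside hepatocytes held 85.1% of the hepatocyte level of Hnf4a, 93.8% of that of Cebpa, 90.4% of that of Prox1 and 54.4% of that of Onecut1. Barcodes of under 750 UMIs in the same libraries carried 206 CPM of Hnf4a and 230.5 CPM of Cebpa, close to the hepatocyte levels of 229 and 239 CPM. In the nuclei, Kupffer-like barcodes carried Prox1 at 257 CPM against 225 CPM in hepatocytes, and Foxa2 at 221 against 191 CPM. They were the highest of 4 other classes, whose medians were 183 CPM for Prox1 and 121 CPM for Foxa2. The lowest, myeloid-like nuclei, had 109 and 43.7 CPM. The heat map of classes shows the same contrast between preparations. Hnf4a in the other TLH classes, at 146 to 195 CPM, lay below the shallow barcodes, and in the other classes of nuclei, at 219 to 293 CPM, around the 238 CPM of theirs. The part of free RNA in these levels was not tested.

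**Figure D1:**
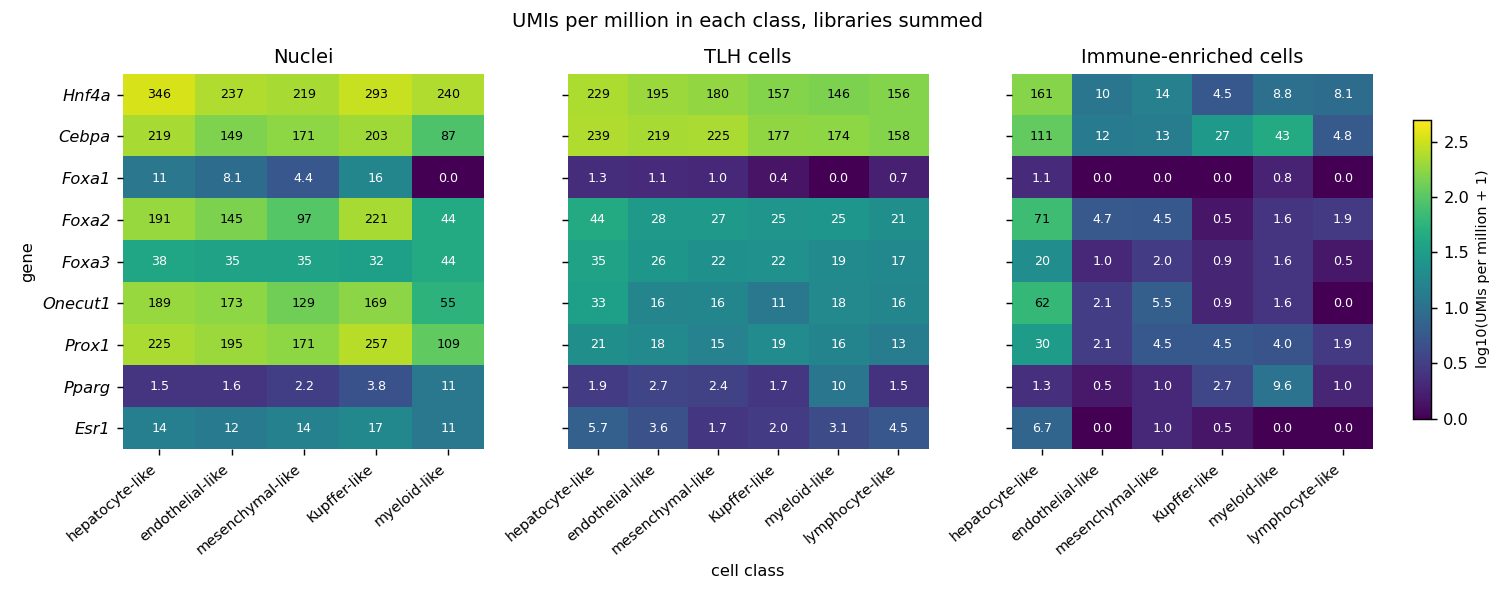
Level of each factor (rows) in the cell classes (columns) of nuclei, TLH cells and immune-enriched cells, with libraries summed and the erythroid-like and plasmacytoid dendritic-like cells of the last left out; the numbers are CPM and the colour is log10(CPM + 1). In the immune-enriched cells Hnf4a falls from 161 in hepatocytes to at most 14.1 elsewhere, while in TLH cells the other classes stay near the hepatocyte column.

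Pparg, a factor of macrophages as well as of adipocytes, had its highest level in myeloid-like cells in each preparation, with 10.4 CPM in TLH (10 UMIs, exact Poisson 95% interval 5 to 19.2 CPM), 9.62 CPM in immune-enriched cells (12 UMIs, 4.97 to 16.8 CPM) and 10.9 CPM in nuclei. The last value rested on 1 UMI, with an interval of 0.28 to 60.9 CPM. In hepatocytes Pparg was 1.91 CPM in TLH (74 UMIs), 1.29 CPM in immune-enriched cells (49 UMIs) and 1.54 CPM in nuclei (37 UMIs). Intervals cover counting error only, and classes built from these cells were not tested against each other. Its hepatocyte counts were too few for a zone comparison in nuclei or cells.

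The immune-enriched hepatocytes, 243 of the DA and 1622 of the LEW rat with medians of 7115 and 13068.5 UMIs, gave 1 value per strain and no test. Onecut1 was 13.5 CPM in DA (exact Poisson 95% interval 10.5 to 17.1) and 69.4 CPM in LEW (66.5 to 72.3). Foxa2 was 21.8 CPM in DA (17.9 to 26.2) and 78.3 CPM in LEW (75.3 to 81.4). Hnf4a was 240 CPM in DA (227 to 254) and 149 CPM in LEW (145 to 153). Prox1 also read higher in the DA rat, at 49.5 CPM (43.5 to 56.0) against 26.9 CPM (25.1 to 28.7), and Cebpa at 125 CPM (115 to 135) against 109 CPM (105 to 112).

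Hepatocyte nuclei fell into 2 ranges by how much of their RNA came from the 23 hepatocyte markers, and the factors' levels in both ranges were set side by side. The share had 2 peaks, and the fewest nuclei between them, 90, lay from 11 to 12%. A total of 4008 nuclei lay under 10% and 6928 from 10% upward, and 582 between 8 and 12%. Nuclei under 10% were deeper, with medians of 2266 to 3132.5 UMIs per rat against 1256 to 1338.5 UMIs, and carried less Alb, the albumin transcript, at 10499 to 14083 CPM against 59357 to 69773 CPM. In barcodes of under 750 UMIs of the same libraries the markers took 14.2 to 18.8% of UMIs. The split is a range of a score set after the data were seen, and not a cell type, and no test was run across it.

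Prox1, Onecut1, Foxa2 and Foxa1 were concentrated in the nuclei under 10%. Prox1 was 323, 515, 434 and 260 CPM in the nuclei under 10% of DA-1, DA-2, LEW-1 and LEW-2, and 66.6, 79.5, 77.4 and 68.9 CPM in those from 10%. Every rat's lower range stood above every rat's upper range, and pooled the ratio was 5.03. Foxa2 was 121, 296, 173 and 611 CPM under 10% and 26.3, 57.8, 44.8 and 98.8 CPM from 10%. Its ratios were 4.59, 5.12, 3.86 and 6.18, and the pooled ratio of 6.36 lay above that of each rat. Onecut1 was 344, 279, 68.4 and 554 CPM under 10% and 22.8, 49.4, 40.9 and 94.2 CPM from 10%. In LEW-1 the Onecut1 ratio was 1.67, against 5.63 to 15.1 in the other 3 rats, and its lower range overlapped the upper range of LEW-2. Foxa1, a pioneer factor, had 230 UMIs under 10% and 27 from 10%, at 19.3 and 2.24 CPM pooled. Esr1 was 20.4, 30.3, 18.2 and 15.2 CPM against 8.18, 7.86, 5.42 and 9.19 CPM, so no rat's lower range fell to the upper one. Hnf4a differed less but was higher under 10% in each rat, at ratios of 1.88, 1.82, 1.66 and 1.37 and 1.42 pooled. Its ranges overlapped between rats.

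Cebpa and Foxa3 did not share the pattern. Cebpa was 167, 140, 214 and 320 CPM under 10% and 165, 215, 238 and 208 CPM from 10%, a pooled ratio of 0.997. Foxa3 had ratios of 0.90, 0.85, 0.90 and 1.21 in the same rats and 0.882 pooled. In the shallow barcodes of the nuclei libraries Foxa2 stood at 41.3 CPM, Onecut1 at 41.8 CPM, Prox1 at 57.4 CPM, Hnf4a at 238 CPM and Cebpa at 213 CPM, near the levels of the nuclei from 10%. After thinning each nucleus to 1000 UMIs, which all nuclei reached, 20.8 to 37.1% of nuclei under 10% had a Prox1 UMI per rat against 5.5 to 6.39% of those from 10%. Without thinning the shares were 47.1 to 70.2% and 8.6 to 10.7%. For Hnf4a they were 24.7 to 40.3% against 18.7 to 28.9% after thinning. Most marker lists of other cell types were lower under 10% in each rat: the 16 endothelial markers summed to 96.2 to 134 CPM against 161 to 240 CPM, the 14 mesenchymal ones to 148 to 197 against 305 to 642 CPM, and the Kupffer, myeloid, cholangiocyte and erythroid lists went the same way. The 14 lymphocyte markers were higher under 10% in each rat, at 14.3 to 29.4 against 9.93 to 24.0 CPM, and the 5 plasmacytoid dendritic markers in 3 of 4 rats, at 2.85 to 7.19 against 3.56 to 5.17 CPM. The median nucleus of either range held 0 UMIs of each list. What part free RNA has in the range from 10% was not tested.

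**Figure D2:**
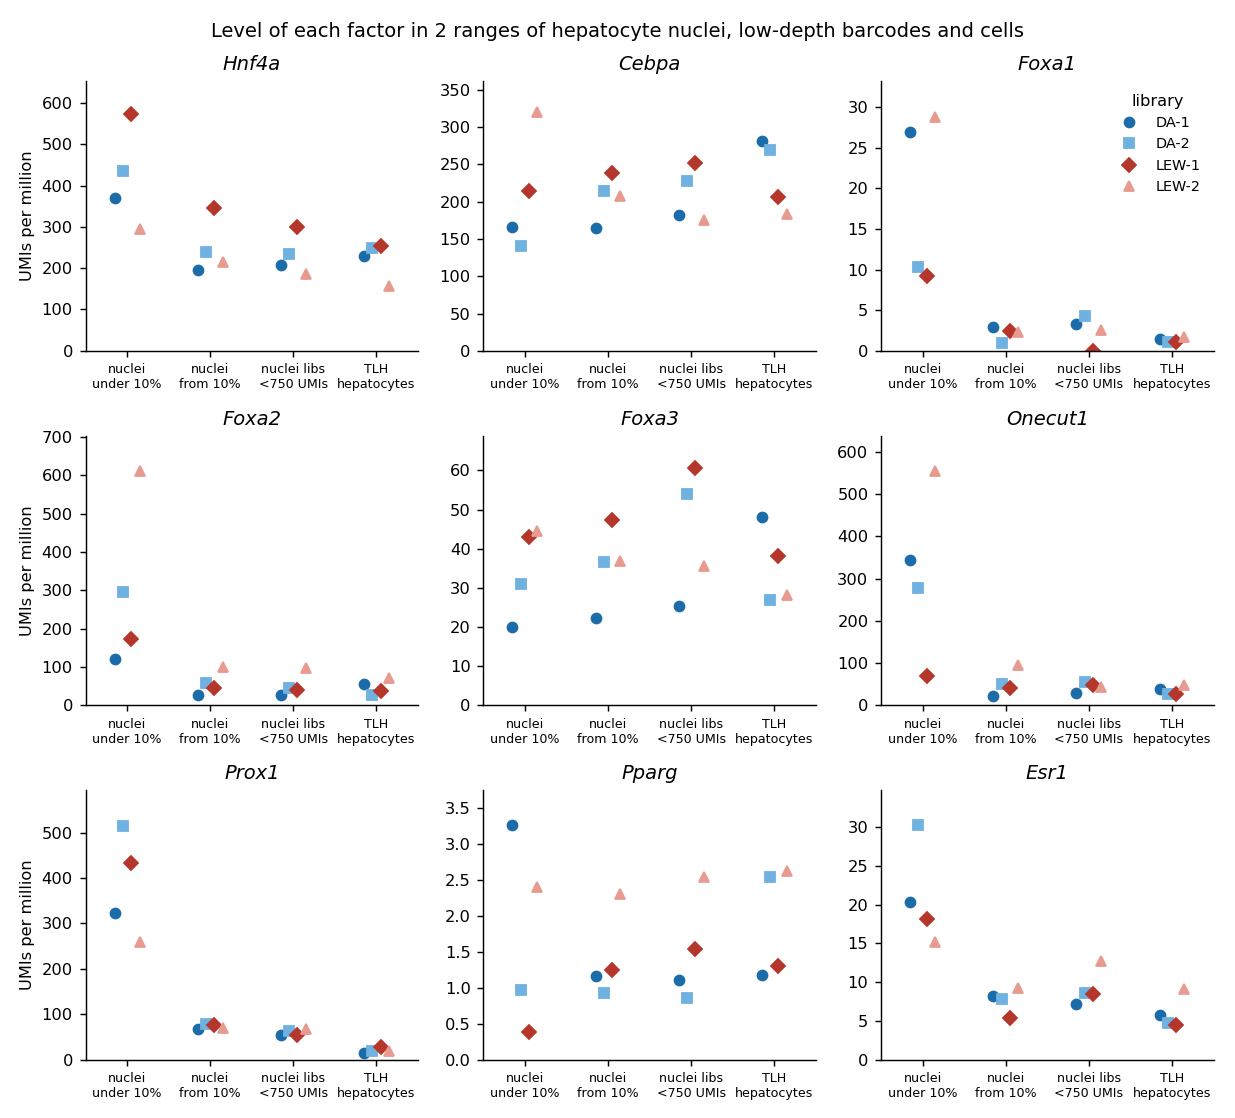
Level of each factor in CPM, on linear axes from 0, in hepatocyte nuclei with under 10% and from 10% of their UMIs in hepatocyte markers, in barcodes of under 750 UMIs of the nuclei libraries, and in TLH hepatocytes; each point is 1 library, and whether a number shared by nuclei and TLH marks a shared animal is not settled by the sources. Prox1 lies at 260 to 515 in the first column and at 66.6 to 79.5 in the second, while Cebpa overlaps across columns.

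The zone comparison asked whether the factors differ between the 2 ends of the lobule. The log-normalised level of each zone gene was first put on a common scale within a library (z-score). Each hepatocyte was scored by the mean z-score of 20 pericentral less that of 23 periportal genes, none of them a member. The hepatocytes were divided into tertiles within their library. Nuclei of the pericentral tertile had less Onecut1, Prox1 and Esr1 than those of the periportal tertile in 4 of 4 rats. The other 5 factors tested were not called, and Pparg failed the filter on low counts. By plain CPM Hnf4a, Foxa1 and Foxa2, among those not called, were also lower in 4 of 4 rats. How many of all genes were lower in 4 of 4 rats was not counted. Of all 9310 genes tested, 14.8% were called and 6.1% were called lower, against 3 of the 8 factors called lower. With library totals and no further scaling, an alternative added after the data were seen, 379 genes were higher and 764 lower in place of 811 and 568, and the median log2 difference of all genes went from -0.011 to -0.17. The same 3 factors were called lower there, and Hnf4a as well (-0.42, adjusted p = 0.043).

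Onecut1, the HNF6 factor, went from 347 to 101 CPM in DA-1, from 264 to 128 CPM in DA-2, from 64.9 to 38.6 CPM in LEW-1 and from 572 to 257 CPM in LEW-2, periportal to pericentral. It fell from tertile to tertile in each rat, although the rats' levels overlapped between tertiles because LEW-1 was low throughout. The log2 fold change was -1.02 (SE 0.15, adjusted p = 3.8e-05, edgeR quasi-likelihood test with the rat as a term). Prox1, a homeobox factor that restrains HNF4A and NR5A2 activity, went from 330 to 133, from 497 to 224, from 266 to 165 and from 235 to 160 CPM in the same rats. In LEW-1 the middle tertile, at 89.2 CPM, was the lowest, and in the other 3 rats the pericentral one. The log2 fold change was -0.75 (SE 0.16, adjusted p = 0.00165). Esr1 was far less abundant, going from 20.0 to 8.87, from 34.9 to 11.4, from 15.3 to 5.37 and from 15.1 to 9.95 CPM, with 187 UMIs in all periportal and 63 in all pericentral nuclei. The periportal tertile of each rat stood above the pericentral tertile of each rat, at a log2 fold change of -1.09 (SE 0.23, adjusted p = 0.00193).

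**Figure D3:**
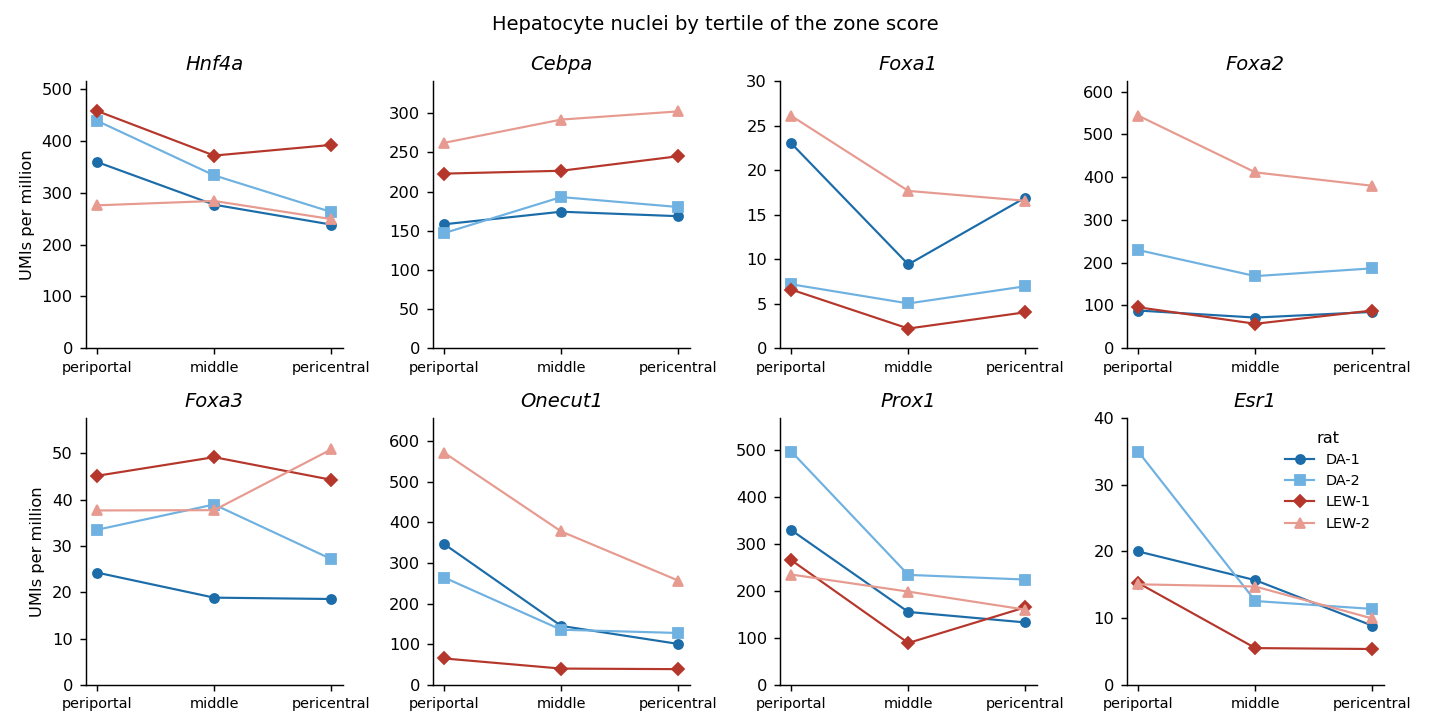
Level of 8 factors in hepatocyte nuclei, in CPM on linear axes from 0, by tertile of the zone score; each line is 1 rat. Onecut1 and Esr1 fall from periportal to pericentral in each of the 4 rats, from 64.9 to 572 down to 38.6 to 257 for Onecut1, whereas Cebpa goes from 147 to 262 to 168 to 302 and was not called.

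Cebpa ran the other way and missed the threshold. It was 158, 147, 223 and 262 CPM in periportal nuclei and 168, 180, 245 and 302 CPM in pericentral nuclei of DA-1, DA-2, LEW-1 and LEW-2, higher in 4 of 4 rats, with a log2 fold change of 0.35 (95% interval 0.06 to 0.64, adjusted p = 0.096). Hnf4a read lower in the pericentral tertile of 4 of 4 rats, at 359, 439, 458 and 276 CPM periportal against 239, 263, 392 and 249 CPM pericentral, but was not called either (-0.25, interval -0.54 to 0.04, adjusted p = 0.247). The 3 FOXA genes were not called, with log2 fold changes of -0.35 for Foxa1 (-0.82 to 0.12), -0.09 for Foxa2 (-0.39 to 0.20) and 0.14 for Foxa3 (-0.22 to 0.49).

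The tertiles differed in make-up as well. Nuclei under 10% marker UMIs were 30.1 to 80.2% of the periportal, 6.4 to 45.7% of the middle and 24.7 to 54.6% of the pericentral tertile of a rat, and median depths were 1775 to 2574.5, 1377 to 1783 and 1389 to 2055 UMIs. The 16 endothelial markers, of which up to 2 were at 0 in a tertile of a rat, summed to 106 to 130 CPM in periportal and to 133 to 183 CPM in pericentral nuclei. The comparison was therefore repeated within each range, with new tertiles. Within the 4008 nuclei under 10%, where 14.2% of 8415 genes were called, 5 factors passed. Onecut1 was at -0.74 (SE 0.09, adjusted p = 1.26e-09), Prox1 at -0.56 (SE 0.08, adjusted p = 2.67e-07) and Esr1 at -1.14 (SE 0.26, adjusted p = 0.000998). Hnf4a fell by 0.32 on the log2 scale (SE 0.08, adjusted p = 0.00232) and Cebpa rose by 0.33 (SE 0.10, adjusted p = 0.0137), each the same way in 4 of 4 rats. Within the 6928 nuclei from 10%, where 12.4% of 5473 genes were called, Onecut1 was at -1.25 (SE 0.20, adjusted p = 1.37e-05) and Prox1 at -0.92 (SE 0.15, adjusted p = 1.22e-05), and Esr1 failed the filter. Hnf4a and Cebpa were not called there, at -0.12 (95% interval -0.30 to 0.05) and 0.05 (-0.16 to 0.25). Onecut1 and Prox1 were lower in pericentral nuclei within each range.

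Some settings ended calls. Without the rat term none of the 3 factors was called, at -1.09 for Onecut1 (adjusted p = 0.71), -0.78 for Prox1 (adjusted p = 0.388) and -1.10 for Esr1 (adjusted p = 0.21). With the shorter list of 4 pericentral and 7 periportal genes Prox1 stood at -0.42 (adjusted p = 0.0638), and on the clusters named in the first comparison alone Onecut1 (-1.04, adjusted p = 0.229) and Prox1 (-0.37, adjusted p = 0.809) were not called and Esr1 was not tested. Each of the 3 kept its sign in every alternative that tested it, 17 for Onecut1, 17 for Prox1 and 15 for Esr1.

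TLH hepatocytes showed no called zone difference for any of the 7 factors tested, although 7.59% of 8684 genes were called. At an unadjusted p under 0.05, 1667 of the genes passed, Onecut1 among them. Onecut1 was 43.3, 29.0, 30.8 and 45.4 CPM in periportal cells of DA-1, DA-2, LEW-1 and LEW-2 and 31.3, 26.5, 22.4 and 48.6 CPM in pericentral cells, lower in 3 of 4 rats (log2 fold change -0.26, 95% interval -0.47 to -0.04, adjusted p = 0.145). On the clusters named in the first comparison alone it was called, at -0.74 (adjusted p = 0.0221). Those clusters, of 2276 and 1609 cells, were led by mitochondrial genes. Prox1 was 11.8, 18.4, 28.1 and 18.3 CPM periportal and 19.0, 19.3, 26.9 and 19.9 CPM pericentral, higher in 3 of 4 rats (0.10, -0.16 to 0.36, adjusted p = 0.737). Esr1 was at -0.45 (-0.91 to 0.01, adjusted p = 0.272). The median mitochondrial share was 9.79 and 13.9% in periportal cells of DA-1 and LEW-1 against 4.15 and 3.93% in their pericentral cells, and its part in these values was not tested. The study describes a poorer zonal distribution of markers in cells than in nuclei. Ahr and Nr1i3, other liver factors called higher pericentrally in both, were at 1.85 and 1.39 in nuclei and 0.58 and 0.66 in cells. The part of this in the values of cells was not tested. The nuclei and cells were then compared directly, an added comparison in which 6.46% of 10306 genes were called. The zone log2 fold change was more negative in nuclei, by 0.79 for Onecut1 (SE 0.18, adjusted p = 0.00386) and by 0.90 for Prox1 (SE 0.21, adjusted p = 0.00389). That of Esr1 was not told apart (-0.67, 95% interval -1.35 to 0.00, adjusted p = 0.264). Without the TLH library of LEW-2, Onecut1 was no longer called there (adjusted p = 0.0592). The 666 genes called there became 300, 340, 402 and 442 without the TLH libraries of LEW-1, LEW-2, DA-1 and DA-2, and 373 and 1508 without the nuclei of DA-2 and LEW-1.

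In the Wistar sections Cebpa was lower in pericentral spots. It was 158 and 186 CPM in the periportal tertile and 146 and 174 CPM in the pericentral tertile of the 2 sections, with a difference between sections larger than that between tertiles. The log2 fold change was -0.12 (SE 0.03, adjusted p = 0.0101), in a table where 16% of 9728 genes were called. DESeq2 (adjusted p = 0.63), the score cut at its median (0.0642) and spots thinned to 5000 UMIs (0.351) each ended the call. Hnf4a was 227 and 257 CPM periportal and 220 and 250 CPM pericentral (-0.05, 95% interval -0.11 to 0.01, adjusted p = 0.334). Foxa2, Foxa3, Prox1 and Pparg were not called. Foxa1, Onecut1 and Esr1 failed the filter, and Onecut1 had only 9, 15 and 21 UMIs in periportal, middle and pericentral spots. The zone difference of nuclei was also set against that of sections, an added comparison in which 1.35% of 10189 genes were called. None of the 5 factors tested in both was called. Prox1 was at -0.99 (95% interval -1.71 to -0.26, adjusted p = 0.196) and was called without LEW-1 (-1.02, adjusted p = 0.0384). The 138 genes called became 16 and 21 without the first and the second section, 92 and 64 without DA-1 and DA-2 and 1073 without LEW-1. A spot holds several cells, so fewer hepatocytes and less RNA per hepatocyte cannot be told apart. The zone test of spots had the section as a term. Its p-values therefore measure how tertile differences vary between 2 sections, and not the spread of the sections' levels. The summed Kupffer markers, 12 in number, were 1275 to 1453 CPM in periportal and 681 to 727 CPM in pericentral spots. The summed hepatocyte markers were lower in pericentral spots too, at 241872 and 241224 CPM periportal and 222588 and 220714 CPM pericentral. The 12 myeloid markers ran the other way, at 529 to 542 and 596 to 708 CPM, as did the endothelial (397 to 413 and 475 to 484 CPM), mesenchymal (1145 to 1239 and 1289 to 1400 CPM) and erythroid lists (328 to 442 and 626 to 716 CPM). The part of these lists in the Cebpa difference was not tested.

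**Figure D4:**
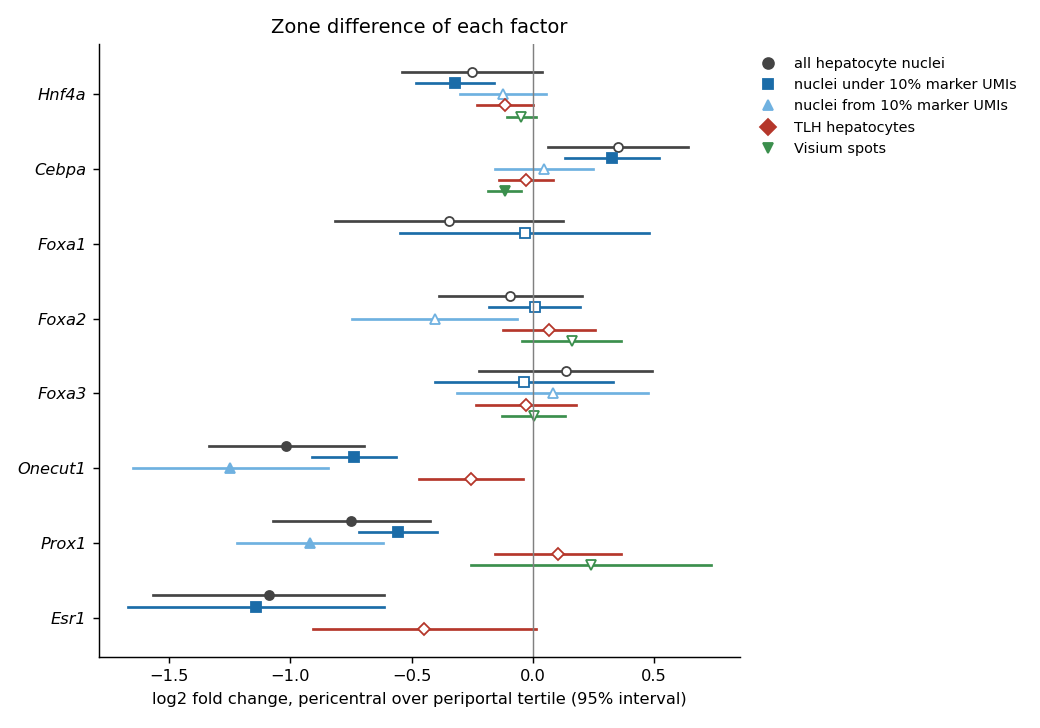
Log2 fold change of each factor, pericentral over periportal tertile (x axis), with its 95% interval, in all hepatocyte nuclei, in their 2 ranges of marker share, in TLH hepatocytes and in Visium spots; filled symbols passed an adjusted p of 0.05. Onecut1 and Prox1 lie at -1.02 and -0.75 in all nuclei and on the negative side in both ranges, while in TLH cells they lie at -0.26 and 0.10.

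The strain comparison asked whether the RNA of the factors differs between DA and LEW hepatocytes. The study names Hnf4a, Pparg and Esr1 from an enrichment of transcription factor gene sets among the DA-linked genes of a hepatocyte pattern. That enrichment is another measure than a factor's own RNA level, so the values below are no check of it. None of the 9 was called in nuclei, where 1.15% of 10509 genes were called, or in TLH cells, where 3.94% of 9842 were. At an unadjusted p under 0.05, 1021 and 2070 genes passed, and DESeq2 called 222 and 400 genes and none of the 9. A factor that missed the threshold is not shown to be equal in the strains, and the intervals below give the sizes the data allow. With so few rats a strain, values can also fail to overlap in a gene without a strain difference. How many of all genes failed to overlap was not counted, so a lack of overlap below is a description only. The strains filled the clusters of TLH hepatocytes unequally: cluster 0 held 1234 and 1170 cells of the DA and 1832 and 1631 of the LEW rats, cluster 1 held 916 and 1475 against 740 and 469, and cluster 8, led by Akr1c1 and Alas1, 414 and 536 against 72 and 31, of 4382, 4503, 4194 and 2873 hepatocytes. In the same sums the mesenchymal markers were at 516 and 558 CPM in DA and 688 and 977 CPM in LEW. The endothelial markers went the other way, at 245 and 247 CPM in DA and 139 and 208 CPM in LEW. So did the cholangiocyte (88.3 and 85.8 against 76.8 and 66.9 CPM) and plasmacytoid dendritic markers (8.31 and 8.18 against 4.86 and 7.71 CPM). The remaining lists overlapped between strains in cells. In the sums of nuclei the mesenchymal markers were at 238 and 236 CPM in DA and 322 and 338 CPM in LEW. The Kupffer markers of nuclei were at 105 and 115 against 162 and 154 CPM, and the other lists overlapped between strains there. The part of clusters or markers in the strain values was not tested.

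Pparg was at 2.40 and 0.95 CPM in DA and at 0.99 and 2.37 CPM in LEW nuclei, from 5 to 13 UMIs a rat, and at 1.17, 2.54, 1.31 and 2.62 CPM in TLH hepatocytes of the same order. The spread within each strain exceeded any difference between strains (log2 fold change LEW over DA 0.00 in nuclei, 95% interval -1.64 to 1.64, and -0.01 in cells, -1.19 to 1.16). Esr1 was 15.4 and 21.1 CPM in DA and 9.06 and 13.3 CPM in LEW nuclei, which did not overlap (-0.68, -1.39 to 0.03, adjusted p = 0.545). In TLH cells it was 5.74 and 4.76 CPM in DA and 4.49 and 9.16 CPM in LEW, with overlap (0.38, -0.45 to 1.21, adjusted p = 0.594).

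Cebpa and Prox1 each gave strains that did not overlap in either preparation, in opposite directions. How many of all genes did the same was not counted, so the pattern is not shown to be particular to these factors. In nuclei Cebpa was 166 and 171 CPM in DA and 231 and 285 CPM in LEW (0.65, 95% interval -0.22 to 1.52, adjusted p = 0.684). In cells it was 282 and 269 CPM in DA and 206 and 184 CPM in LEW (-0.47, -0.77 to -0.17, adjusted p = 0.0949). Prox1 was 218 and 336 CPM in DA and 179 and 199 CPM in LEW nuclei (-0.49, -1.40 to 0.42, adjusted p = 0.776), against 15.2 and 19.0 CPM in DA and 29.1 and 19.3 CPM in LEW cells (0.53, 0.00 to 1.05, adjusted p = 0.235). The interaction of strain and preparation, added after these values were seen, called 0% of 11502 genes (499 at an unadjusted p under 0.05, and 10 with DESeq2). It stood at 1.08 for Cebpa (0.23 to 1.93) and at -1.05 for Prox1 (-1.97 to -0.14), each with an adjusted p of 1. The Cebpa difference in nuclei fell to 0.10 in the nuclei from 10% marker UMIs, where the strains overlapped, and to 0.0071 on the clusters named in the first comparison alone. In the nuclei under 10% the strains did not overlap, at 167 and 140 CPM in DA and 214 and 320 CPM in LEW.

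Rats of 1 strain differed widely in Onecut1 and Foxa2. LEW-2 nuclei had the most Onecut1 and Foxa2, at 408 and 449 CPM, and LEW-1 nuclei had 48.7 and 81.4 CPM, while DA nuclei had 212 and 184 CPM of Onecut1 and 81.9 and 198 CPM of Foxa2. Without LEW-2 the Onecut1 difference turned from 0.14 to -1.83 (adjusted p = 0.0287, with the lone LEW library assumed to vary like the DA libraries). The share of nuclei under 10% marker UMIs was 47.1, 43.3, 20.4 and 58.1% in DA-1, DA-2, LEW-1 and LEW-2, the same order of rats as for Onecut1, and its part in the Onecut1 levels was not tested. Within each range no factor was called (0.667% of 9900 genes and 2.94% of 7337). Foxa3 was 20.9 and 33.3 CPM in DA against 46.1 and 42.0 CPM in LEW nuclei, without overlap (0.77, 95% interval 0.06 to 1.48, adjusted p = 0.443), and overlapped in cells (48.1 and 26.8 against 38.1 and 28.2 CPM). Over 16 alternatives the Foxa3 difference in nuclei went as low as -0.012, and 15 of them kept its sign. Hnf4a overlapped in both preparations, at 298, 354, 410 and 270 CPM in nuclei and 229, 248, 253 and 157 CPM in cells. Foxa1 was at most 20.4 CPM in nuclei and 1.75 CPM in cells, with overlap. The counts of genes called also moved with single rats: without LEW-1 the cells gave 27 called genes, without LEW-2 90 and without DA-2 210 in place of 388, and the nuclei gave 231 without LEW-2 and 203 without DA-2 in place of 121.

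**Figure D5:**
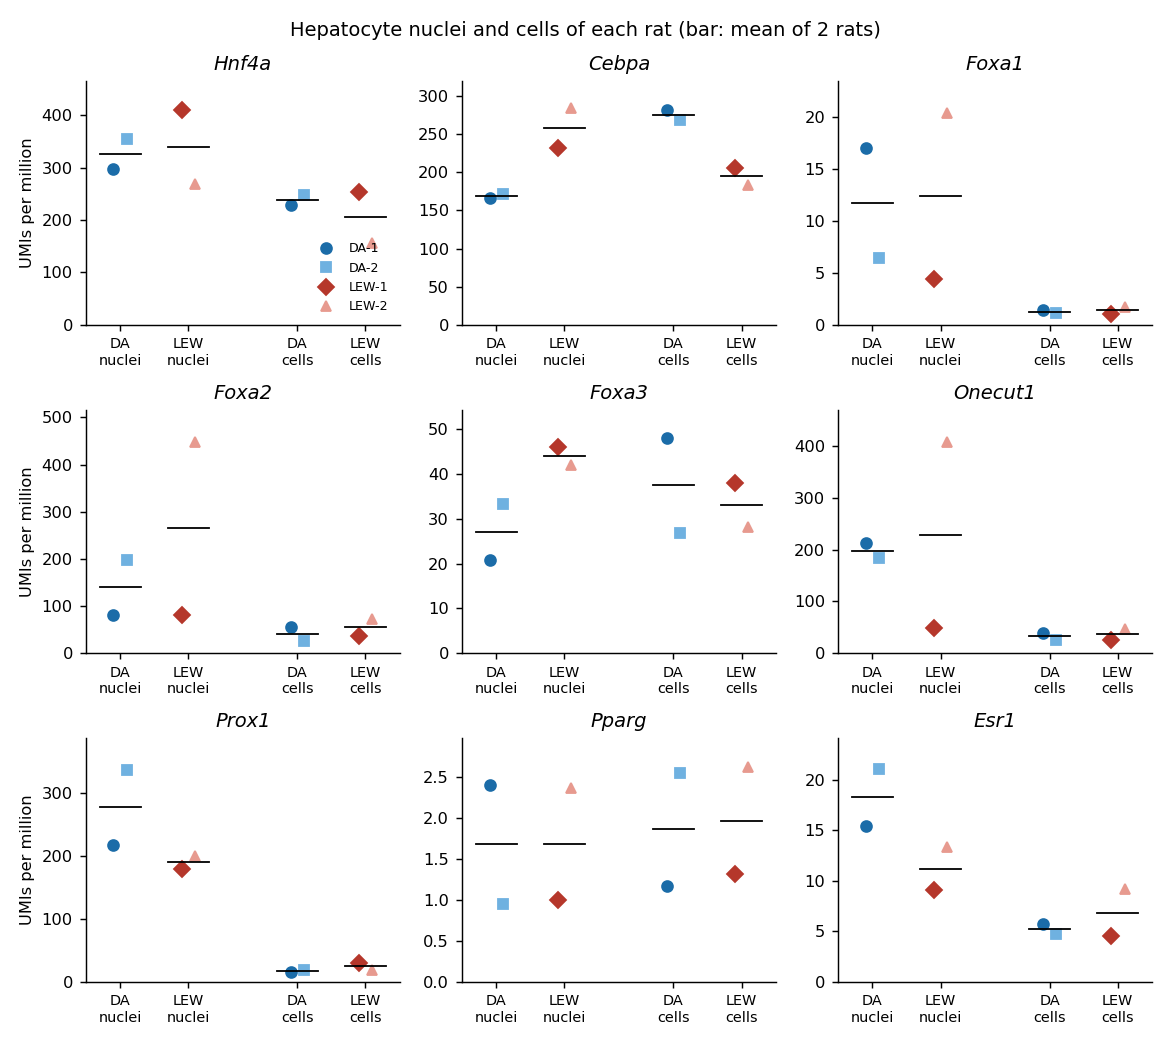
Level of each factor in hepatocyte nuclei and TLH hepatocytes, in CPM on linear axes from 0; each point is 1 rat and each bar the mean of 2 rats, and whether a number shared by nuclei and cells marks a shared animal is not settled by the sources. Cebpa is higher in LEW nuclei (231 and 285 against 166 and 171) and lower in LEW cells (206 and 184 against 282 and 269), and no factor passed the threshold.

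The zone difference itself was compared between strains in nuclei. None of the 8 factors tested was called, with 1.92% of 9310 genes called (1494 at an unadjusted p under 0.05, and 272 with DESeq2, none of them a member). The log2 difference of LEW from DA was 0.19 for Onecut1 (95% interval -0.35 to 0.74), 0.36 for Prox1 (-0.18 to 0.90) and 0.12 for Esr1 (-0.86 to 1.10). Leaving out rats moved the number of genes called to between 2 without DA-1 and 833 without LEW-2, with 38 without DA-2, and library totals without scaling gave 19.

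Nuclei and cells differed in most genes, 70.6% of 10989, and in 6 of the 9 factors. The scaling sets much of the direction: with TMM scaling 4025 genes were higher and 3733 lower in nuclei, and with library totals alone 6577 and 1782, while the median log2 difference of all genes went from 0.068 to 0.91. Markers of other cells moved with the preparation as well: the Kupffer list was at 105 to 162 CPM in nuclei and 379 to 576 CPM in cells, the mesenchymal list at 236 to 338 and 516 to 977 CPM and the myeloid list at 77.2 to 132 and 167 to 322 CPM, and their part was not tested. The values below are those with TMM unless stated. Prox1 was higher in nuclei by 2.64 on the log2 scale (SE 0.26, adjusted p = 1.51e-06), from 179 to 336 CPM in nuclei against 15.2 to 29.1 CPM in cells. Foxa1 was higher by 2.32 (SE 0.47, adjusted p = 0.000881) and Onecut1 by 1.73 (SE 0.51, adjusted p = 0.0139), the latter with nuclei of 48.7 to 408 CPM and cells of 25.8 to 47.6 CPM. These 3 were called higher without scaling as well, at 3.49, 3.18 and 2.63. On the TMM scale Cebpa was at -0.99 (SE 0.24, adjusted p = 0.00199), Foxa3 at -0.85 (SE 0.24, adjusted p = 0.00611) and Pparg at -1.08 (SE 0.43, adjusted p = 0.038). The plain CPM of each of these overlapped between the preparations, with pooled Foxa3 at 38.0 CPM in nuclei and 34.9 CPM in cells, and without scaling none of the 3 was called (-0.15, -0.016 and -0.24). Hnf4a, Foxa2 and Esr1 were not called. Foxa2, at 1.12 (adjusted p = 0.068), was called in 8 of 17 alternatives, among them without the nuclei of DA-1 or LEW-1 or the TLH cells of DA-1 (adjusted p = 0.0283 to 0.0406). Hnf4a turned with the scaling, from -0.23 to 0.59 without it (adjusted p = 0.0158). With TMM it was called without the nuclei of LEW-1, at -0.42 (adjusted p = 0.0473), although the other 3 nuclei libraries, at 270 to 354 CPM, lay above each TLH library, at 157 to 253 CPM. Esr1 was called without the TLH cells of LEW-2, at 0.74 (adjusted p = 0.00972), and without scaling, at 1.27 (adjusted p = 0.00129). With only the nuclei from 10% marker UMIs, where 50.6% of genes were called, Prox1 alone was called, at 1.79 (SE 0.17), and Foxa3 stood at 0.01. Without the nuclei of LEW-2 Onecut1 was not called (adjusted p = 0.0995), and Pparg lost its call with DESeq2 (adjusted p = 0.0604) and without any 1 of 4 libraries (nuclei of DA-2 or LEW-1, TLH of DA-2 or LEW-2, adjusted p = 0.121 to 0.146). Chemistry and handling differed with the preparation and cannot be told apart from it, and whether the animals differed is not settled by the sources.

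Among 67 other liver transcription factors and cofactors, of which 65 were found, the zone moved some factors more than the 9 members. In nuclei 5 were higher and 8 lower of 61 tested (21.3%, against 14.8% of all genes). Tbx3, a target of the Wnt signal of the central vein, was higher in the pericentral tertile by a log2 fold change of 3.23 (SE 0.29, adjusted p = 9.3e-09), Ahr, the dioxin receptor, by 1.85 (SE 0.18) and Nr1i3, the receptor CAR, by 1.39 (SE 0.16). Ppargc1a, a coactivator of fasting metabolism, fell by 2.42 (SE 0.48, adjusted p = 0.000987) and Tcf7l1 by 1.30 (SE 0.18). In TLH cells 3 were higher and 4 lower of 53 (13.2%, against 7.59% of all genes), with Nr1i3 at 0.66 and Ahr at 0.58, and in the sections 9 were higher and 9 lower of 51 (35.3%, against 16%), with Tbx3 at 2.31, Ahr at 1.09 and Nr1i3 at 0.91. Between strains 1 of 62 was called in nuclei (1.61%, against 1.15% of all genes) and 6 of 57 in cells (10.5%, against 3.94%). Xbp1, a factor of the unfolded protein response, was higher in LEW by 1.00 on the log2 scale (SE 0.19, adjusted p = 0.0309), and Nr1i3 was lower, at -1.17 (SE 0.16, adjusted p = 0.00884). Both values come from the TLH sums whose clusters and markers of other cells, the mesenchymal and endothelial among them, differed by strain. In the zone by strain comparison 0 of 61 was called. Nuclei against cells gave 33 higher and 6 lower of 63, or 61.9%, below the 70.6% of all genes. The lists were counted with TMM scaling only.

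Genes bound or driven by HNF4A did not share 1 direction. In nuclei, leaving out the members of the zone score, 6 of 13 were higher in the pericentral tertile and 0 lower, where 14.8% of all genes were called, among them Apoa2 (1.56, SE 0.22) and Cyp8b1, an enzyme of bile acid synthesis (1.10, SE 0.18). The pericentral tertile also held a smaller share of nuclei under 10% marker UMIs in each rat, and its summed hepatocyte markers went from 77421 to 126393, from 80370 to 107569 and from 94724 to 104677 CPM in DA-1, DA-2 and LEW-2 and from 150270 to 142008 CPM in LEW-1. Their part in these counts was not tested. Apoa1, Apoa2, Apob, Apoc3, Ttr and Serpina1 of the HNF4A list are also among the hepatocyte markers. These counts and the marker share are therefore not independent. In TLH cells 1 of 13 was higher and 4 lower, where 7.59% of all genes were called, and in the sections 3 higher and 6 lower, where 16% were. Apoa2 was higher pericentrally in all 3, and Apoa1 was lower in cells (-0.33) and sections (-0.37). None of the 15 was called between strains in nuclei or cells, and 2, Apoa2 and Cyp8b1, differed between strains in their zone difference (-1.34 and -1.02 in LEW less DA), where 1.92% of all genes were called. Against cells, 3 were higher and 8 lower in nuclei, or 73.3% of the 15, beside 70.6% of all genes.

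Of 13 PPARG targets, 7 were tested by zone in nuclei, with 1 higher and 3 lower (57.1%, against 14.8% of all genes): Scd, a fatty acid desaturase, at 1.96 (SE 0.19), and Fasn, fatty acid synthase, at -0.87 (SE 0.16), Plin2 at -0.59 and Angptl4 at -0.55. TLH cells had 1 higher and 2 lower of 7 (42.9%, against 7.59%), and sections 3 higher and 3 lower of 9 (66.7%, against 16%), with Scd at 0.25 and 1.67. Fasn was higher in pericentral spots (0.20) and lower in pericentral cells (-0.23). None of the targets was called between strains, of 7 in nuclei and 8 in cells, or in the zone by strain comparison, and against cells 2 were higher and 2 lower in nuclei of 9, or 44.4%, below the 70.6% of all genes.

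The genes whose nuclear levels ran closest to the zoned factors, by Pearson's r of log2(CPM + 1) over the 12 sums of 4 rats and 3 tertiles, were Mpnd (0.96), Magi3 (0.95) and LOC103692869 (0.95) for Onecut1. For Prox1 they were Ranbp10 (0.98), Ralgapa1 (0.96) and Atp2a2 (0.95), and for Esr1 Lpar6 (0.94), Fer1l5 (0.94) and AABR07021704.1 (0.93). The sums share rats, depth and the split by marker share, so these values are a description.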

How the data were processed

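Hepatocytes of 4 nuclei, 4 TLH and 2 immune-enriched libraries and spots of 2 sections were analysed. The authors aligned reads with Cell Ranger 3.1.0 or Space Ranger 1.1.0 and deposited raw UMI counts, without normalization. Gene names missing for the TLH and immune-enriched matrices were read from the nuclei features in row order. Cells were kept on the study's limits, except that LEW TLH cells needed 2000 UMIs in place of the stated 1500, which gave the study's cell numbers (1500 was an alternative). They were normalized with sctransform 0.4.2, joined by a Harmony correction over 15 components and clustered in Seurat 5.3.0 at resolution 2.5 (nuclei) or 0.6. Clusters needed 3 markers among 30 leading genes, or among 100 in a second comparison set with the counts in hand. The second could give only the hepatocyte name, and there both zone lists were added to the hepatocyte markers. The first named hepatocyte clusters of 826, 579, 566 and 242 nuclei and of 2276 and 1609 TLH cells. The second named the other hepatocyte nuclei and TLH cells, and 315 nuclei stayed unnamed. UMI sums per rat, and per rat and tertile, were tested with edgeR 4.0.16 (TMM, default low-count filter, robust quasi-likelihood, Benjamini-Hochberg at 0.05), and the test was run on simulated counts. Of genes given a log2 change of 1, it called 11% between strains in nuclei, 50% in cells and 1% for strain by preparation. For a change of 2 the shares were 79, 88 and 44%. Beside these, 3, 22 and 7 unchanged genes were called. By zone in nuclei a change of 1 was called in 71%. Alternatives were DESeq2 1.42.0, other size factors, filters, zone lists and cuts, thinning, doublets (Scrublet through scanpy 1.11.5), the replicate block and each library left out. Interactions were kept only for factors that passed the count filter on both sides. Library totals without scaling, the ranges of marker share, crossed numbers, first-comparison clusters, the highest 6% of Scrublet scores and all 3 interactions with preparation or section were added after seeing the data. Scrublet called 5 to 21 nuclei and 1 to 3 TLH cells a library, few beside the expected rate of 0.06 it was given. How many doublets it missed was not tested. Members and lists were chosen with earlier results of these data known. Beyond the members, up to 5 called genes a direction were named from the factor list, up to 3 from the other lists and up to 3 most similar genes. Results for 1 gene of the factor list are not reported here.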

Additional observations from a re-analysis of the deposited data

Results flagged for a closer look

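Cebpa moved in opposite directions in nuclei and sections, with a zone log2 fold change of 0.35 in nuclei and -0.12 in Visium spots, each the same in all of its libraries; the difference of 0.46 was tested and not called (adjusted p = 0.275). Its strain difference was 0.65 in nuclei and -0.47 in cells, with an adjusted p of 1 for the interaction. The nuclei value was 0.10 in nuclei from 10% marker UMIs and 0.0071 on the clusters named in the first comparison. In nuclei under 10% the strains did not overlap, at 167 and 140 CPM in DA and 214 and 320 CPM in LEW. How many of all genes had opposite strain differences in nuclei and cells was not counted. Foxa2 had zone values of -0.093 in nuclei and 0.16 in spots, again opposite in every library (adjusted p = 0.575 for the difference). By plain CPM these nuclear directions were not kept in both ranges of marker share. Foxa2 was higher in the pericentral tertile of 3 of 4 rats under 10% and lower in 3 of 4 from 10%. Cebpa was higher in that tertile of 4 of 4 rats under 10% and lower in 3 of 4 from 10%. How many of all genes had opposite zone differences in nuclei and spots was not counted. Prox1 had zone values of -0.75 in nuclei and 0.24 in spots (adjusted p = 0.196), and strain values of -0.49 in nuclei and 0.53 in cells (adjusted p = 1), although LEW-2 and DA-2 lay close in cells, at 19.3 and 19.0 CPM. The Prox1 value of spots rested on 67 UMIs in periportal and 70 in pericentral spots. The interactions of zone with preparation, -0.79 for Onecut1 and -0.90 for Prox1, passed the threshold.

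A cluster of 315 nuclei that no marker list named, with a median of 4445 UMIs, carried Foxa2 at 301 CPM, Onecut1 at 284 CPM and Prox1 at 461 CPM, against 191, 189 and 225 CPM in the hepatocyte-like nuclei. These nuclei entered no comparison except the one over all barcodes.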

How the results depend on the processing

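Of 991 values of single factors under alternatives, 23 lost and 20 gained a call with their direction kept. At least 103 changed sign with no call in either, a count without small sign changes when 1 section was left out. A further 3 reversed: Onecut1 between strains in nuclei without LEW-2 (-1.83, against 0.93 without LEW-1), Hnf4a between nuclei and cells without scaling (0.59) and Foxa3 between nuclei from 10% marker UMIs and cells (0.0069). The number of factors called between strains in cells rose from 0 to 1 with no filter on low counts, which was Cebpa (adjusted p = 0.0252). It rose to 2 with the replicate block and crossed numbers, which were Cebpa and Foxa2 (adjusted p = 0.0404 for Foxa2). Over 16 alternatives the Foxa2 difference in cells ran from -0.11 to 1.09. By zone in nuclei the number of factors called went from 3 to 0 without the replicate block, to 0 on clusters named in the first comparison and to 5 in nuclei under 10% marker UMIs. By zone in cells it was 1 on clusters named in the first comparison (Onecut1 at -0.74), in sections 0 with DESeq2, with the score cut at its median and with thinned spots, and between nuclei and cells 1 with nuclei from 10%. Leaving out 1 library gave 0 to 1 factors called between strains in nuclei, 1 to 3 for zone by preparation and 0 to 1 for zone by section. Where that left 1 library in a group, it was assumed to vary like the other groups. The causes were not tested.

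The replicate numbers of the titles did not pair the samples (r = 0.08 between same-numbered strains in nuclei and -0.15 in cells, with 2 pairs), and the numbers were crossed in cells and for DA nuclei and cells (r = -0.22, against 0.11 for LEW). As a block they left 0 factors called between strains in either preparation and moved the genes called from 121 to 484 in nuclei and from 388 to 184 in cells, or to 1023 in cells when crossed. With no filter on low counts 468 and 1093 genes were called. In other comparisons the genes called ranged from 1379 to 98 by zone in nuclei without the rat term, 66 on clusters named in the first comparison, 632 with the shorter list and 607 and 493 without DA-1 and DA-2, and from 659 to 349 with DESeq2, 21 without the rat term, 1050 with the shorter list, 344 when thinned, 353 on clusters named in the first comparison and 286 and 326 without LEW-1 and LEW-2 in cells. Without scaling 208 genes were called between strains in nuclei, and the genes higher and lower were 421 and 309 in place of 291 and 368 by zone in cells, 295 and 294 in place of 460 and 206 for zone by preparation and 32 and 73 in place of 62 and 76 for zone by section. DESeq2 gave 539 in the sections in place of 1561, and thinned spots gave 672. Low counts kept Pparg out of the zone tests in nuclei and cells, and Onecut1, Esr1 and Foxa1 out of those in sections.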
